A study of Homo sapiens with 5 samples.

Results

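Aminoacyl-tRNA synthetases load each amino acid onto its transfer RNA, the step that sets the genetic code before a ribosome reads it. Cytosol and mitochondria mostly use separate enzymes, all of them encoded in the nucleus, and each enzyme belongs to class I or class II by the fold of its catalytic domain. The 35 synthetase genes described here were taken by name, 19 cytosolic and 16 mitochondrial, with the names that end in 2 counted as mitochondrial. All 35 were found among 61220 genes with a matched transcript, and all 35 were among the 13492 genes with enough reads to be tested. GARS1 and KARS1, counted as cytosolic, are known to supply both compartments from a single gene. EPRS1 joins the glutamyl and prolyl enzymes in a single chain, and FARSA and FARSB are the subunits of the cytosolic phenylalanyl enzyme.

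Polyadenylated RNA of NCI-H1975 and HCC827, 2 established human lung adenocarcinoma cell lines, was combined by mass and sequenced as PCR-amplified cDNA on a nanopore PromethION flow cell. HCC827 gave 0, 25, 50, 75 or 100% of the mass. Each library carries its NCI-H1975:HCC827 mass ratio as its name, which runs from 100:0 (NCI-H1975 alone) over 3 mixed libraries to 0:100 (HCC827 alone). Each ratio had 1 library. Both lines were grown under the same culture conditions with no drug or genetic change named, and the RNA of each line was labelled as carrying sequins, synthetic spike-in transcripts of mix A for NCI-H1975 and mix B for HCC827. All libraries drew on the same RNA preparation of each line, so the p-values below cover the scatter of libraries about a trend and not differences between cultures.

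Libraries held 2932250 to 4058751 reads, with 11862 to 13471 genes at 10 reads or more. The read-weighted mean length of transcripts went from 2581 bases at 100:0 to 2180 bases at 0:100. Sequin reads fell at every step from 100:0, with 5475, 4678, 2830 and 1269. The 0:100 library had 0 sequin reads although its label names mix B. Of 6 epithelial markers 5 rose along the series (KRT7, KRT8, KRT18, KRT19 and CDH1), with a summed level of 5657 CPM (reads per 1000000, scaled by TMM as described below) at 100:0 and 16026 at 0:100. EPCAM was at 382 and 377. The 3 lung lineage markers NKX2-1, NAPSA and SFTPB rose as well. The leukocyte markers PTPRC and CD3E had 0 reads in all libraries, and the 3 endothelial markers summed to 3 or 4 reads a library. Of 4 fibroblast markers DCN had 0 reads and LUM 0 to 3, while COL1A1 fell from 159 to 7.17 CPM and COL1A2 from 28.7 to 0. A fit with the trend by transcript length removed is among the alternatives below. Sequin reads were left out of the gene sums and of the library sizes in the slope fit. Beyond that, the part of these marker differences, of transcript length and of the missing sequins in the results below was not tested.

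Several cytosolic synthetase genes are known targets of ATF4, a transcription factor of the amino acid stress response that binds C/EBP-ATF response elements. The core TGATGCAA was searched on both strands from 250 bases before to 50 bases after the RefSeq gene start, in GRCh38.p14. The table held 39 promoters of 30 members, and 6 members held the core, beside 304 of all 35116 promoters of the same length (0.866%). Of 23 ATF4 response genes with an entry 3 held it. VARS2, YARS1, AARS2, LARS1 and VARS1 had no entry. The 6 matches are shown because they are the members that carry the core, each as 30 bases on the gene's strand, 5′ to 3′, with the core or its reverse complement TTGCATCA in capitals.
MARS1, chr12:57488053-57488082, plus strand: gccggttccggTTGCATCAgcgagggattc
AARS1, chr16:70289675-70289704, minus strand: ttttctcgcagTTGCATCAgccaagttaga
TARS1, chr5:33440956-33440985, plus strand: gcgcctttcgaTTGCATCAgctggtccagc
NARS1, chr18:57621804-57621833, minus strand: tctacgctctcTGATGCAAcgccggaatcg
IARS1, chr9:92293692-92293721, minus strand: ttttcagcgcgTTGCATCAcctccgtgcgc
CARS1, chr11:3057407-3057436, minus strand: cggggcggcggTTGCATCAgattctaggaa
The core stood 4 bases before the RefSeq start in MARS1, 187 before it in AARS1, 13 before it in IARS1 and 2 before it in CARS1. It stood 2 bases after the start in TARS1 and 14 after it in NARS1. All 6 are cytosolic enzymes, and along the series 2 of them rose (MARS1 and AARS1), 2 fell (TARS1 and NARS1) and 2 had no call (IARS1 and CARS1), so the matches did not share a direction. A match describes letters in a window and not a bound site, and the RefSeq start can differ from the outermost GENCODE start.

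The main comparison asked which synthetase transcripts differed between the RNA of the lines. Each gene was given a slope, which is the log2 difference between pure HCC827 and pure NCI-H1975 RNA on the fitted line, from the edgeR quasi-likelihood test over all 5 libraries with TMM scaling and Benjamini-Hochberg adjustment over 13492 genes. "Rose" means more in HCC827 and "fell" more in NCI-H1975, at an adjusted p under 0.05. Of the 35 members 13 rose, 5 fell and 17 had no call. The 18 calls make up 51.4% of members, where 45.7% of all genes tested were called (23.5% rose and 22.3% fell), so the share of calls was close to the background. The median slope of the members was 0.29 on the log2 scale, with a range of -0.78 to 2.74, and that of all genes was -0.04. With library totals in place of TMM scaling the median of all genes moved to -0.45 and that of the members to -0.13, and 7 members rose and 11 fell, 12 of the 18 being shared with the TMM calls. The directions given below are therefore relative to the TMM scale. Shares of all genes called are given for the TMM slope only. Call counts under other settings, here and below, have no such share beside them and are not results about the members or lists. When the 2 libraries richest in each RNA were compared as groups in place of the slope, 5 members rose and 0 fell, so all 5 members that fell by the slope lost their call. At an unadjusted p under 0.05 that edgeR comparison held 13 members. The share of all genes it called is not given, so whether the loss of calls was particular to the members was not tested.

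Of the 19 cytosolic members 8 rose and 4 fell (63.2% called), and of the 16 mitochondrial members 5 rose and 1 fell (37.5% called). With library totals these counts were 4 and 8, and 3 and 3. The difference between these shares was not tested, and the classes differed in depth. Cytosolic members had 139 to 1707 reads a library and slope errors of 0.11 to 0.17, and mitochondrial members 4 to 632 reads and errors of 0.13 to 0.49. Their median slopes were 0.29 and 0.30. Of the 18 class I enzymes 7 rose and 1 fell (44.4% called). Of the 16 class II enzymes 6 rose and 3 fell (56.2% called), beside 45.7% of all genes tested. EPRS1, which belongs to both, was left out of these counts. The CPM of 11 members ran in order over all 5 libraries, 8 upward and 3 downward, or about the share of all genes tested (28.5%). Past the threshold and at least 2-fold by the fit were 5 members (SARS1, PARS2, WARS2, SARS2 and VARS2), where 27% of all genes tested met both conditions.

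**Figure D1:**
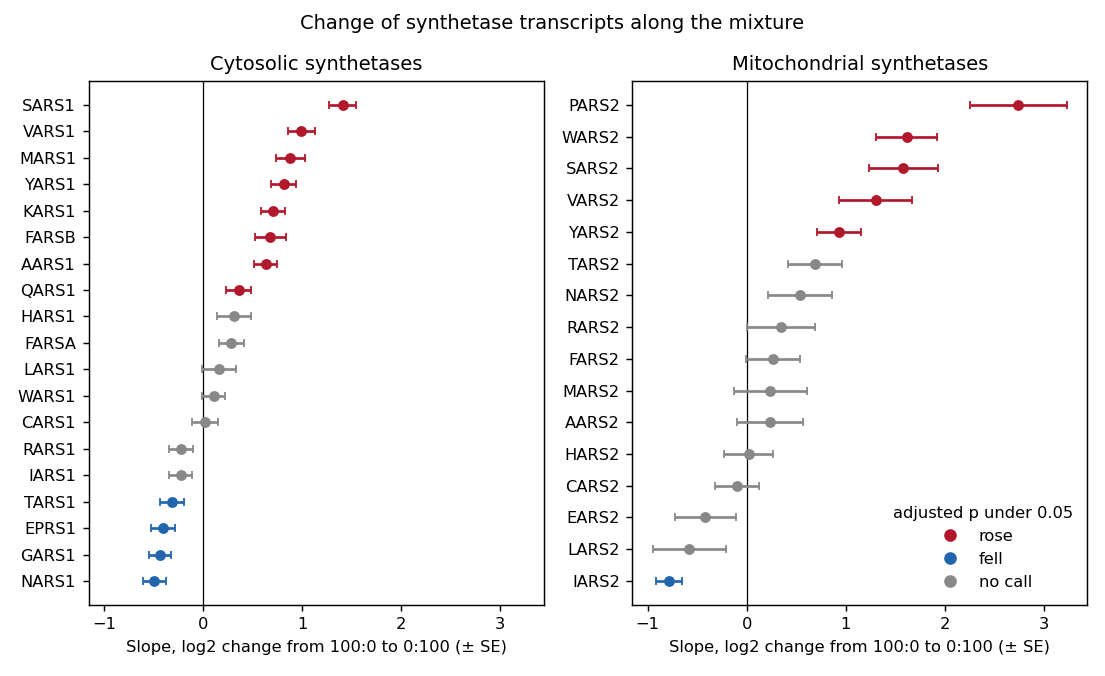
Slope of each of the 35 synthetase genes in log2 units (points) with its standard error (bars), cytosolic members on the left and mitochondrial members on the right, coloured by call. SARS1 at 1.41 and PARS2 at 2.74 lead their classes, slopes without a call lie within 0.7 of 0, and the errors of the mitochondrial members are wider.

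Among the cytosolic members that rose, SARS1, the seryl-tRNA synthetase (ENSG00000031698.13, chr1:109213918-109238182), led with 159, 245, 291, 357 and 453 CPM from 100:0 to 0:100. Each step was upward, and the slope was 1.41 ± 0.13 (SE, 5 libraries), with an adjusted p of 6.9e-06 in the edgeR quasi-likelihood test. VARS1, the valyl enzyme (chr6:31777518-31795752), had 78.6, 107, 120, 129 and 170 CPM and a slope of 0.99 ± 0.14. It also rose at every step. MARS1, the methionyl enzyme (chr12:57475445-57517569), whose product charges both initiator and elongator tRNA, had 91.5, 116, 134, 169 and 163, with a slope of 0.88 ± 0.14. Its highest value stood at 25:75, slightly above the pure HCC827 library. YARS1, the tyrosyl enzyme (chr1:32775237-32818031), had 151, 194, 217, 258 and 267 and a slope of 0.81 ± 0.13. KARS1, FARSB and AARS1 rose with slopes of 0.71, 0.68 and 0.63. QARS1, the glutaminyl enzyme, was near the threshold at 0.36 ± 0.13 (edgeR adjusted p = 0.0352). Its slope turned to -0.05 with library totals, and of the 13 alternatives 3 kept its call and 9 others lost it. They include leaving out the 100:0, 75:25, 50:50 or 0:100 library, with edgeR adjusted values of 0.0888, 0.0584, 0.0546 and 0.328. With library totals AARS1, FARSB and KARS1 kept positive slopes of 0.22, 0.27 and 0.29 without a call.

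Of the 4 cytosolic members that fell, NARS1, the asparaginyl enzyme (chr18:57600656-57622213), had the largest slope, -0.49 ± 0.12, with 202, 188, 171, 164 and 141 CPM, in order. GARS1, the glycyl enzyme (chr7:30580533-30634033), had 465, 401, 398, 369 and 333, also in order, with a slope of -0.43 ± 0.11. EPRS1 (chr1:219968600-220046530) had 259, 238, 218, 226 and 186 and a slope of -0.40 ± 0.12. All mixed libraries of EPRS1 lay between the pure ones, with a small step up at 25:75. TARS1, the threonyl enzyme (chr5:33440696-33468091), had 296, 300, 283, 267 and 239, and its slope of -0.31 ± 0.12 was close to the threshold (edgeR adjusted p = 0.0447). Its level at 75:25 was no lower than at 100:0. Single libraries decided some of these calls in the edgeR test: without the 100:0 library the adjusted p was 0.0801 for GARS1 and 0.0816 for EPRS1, and without the 0:100 library it was 0.173 for EPRS1 and 0.278 for TARS1. TARS1 also lost its call without the 75:25 (0.121), 50:50 (0.0771) or 25:75 library (0.0595), and with DESeq2 (0.057). GARS1 had an edgeR adjusted p of 0.0517 when protein_coding transcripts alone were summed, and EPRS1 of 0.144 with the trend by transcript length removed. The 7 cytosolic members without a call, CARS1, FARSA, HARS1, IARS1, LARS1, RARS1 and WARS1, had slopes of -0.23 to 0.31.

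**Figure D2:**
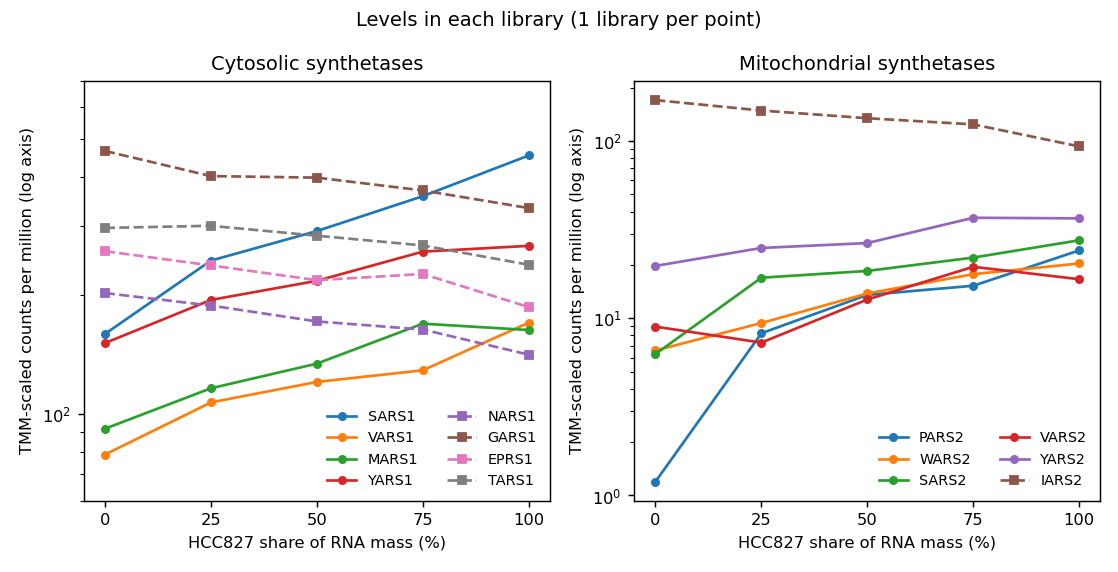
TMM-scaled CPM (log axis) in each library against the HCC827 share of RNA mass, for the 8 cytosolic and 6 mitochondrial members described by library; solid lines mark members that rose and dashed lines members that fell. SARS1 passes GARS1 between the 25:75 and 0:100 libraries, and PARS2 climbs from 1.20 to 24.2.

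The mitochondrial members that rose were scarce transcripts. PARS2, the mitochondrial prolyl-tRNA synthetase (ENSG00000162396.6, chr1:54756898-54764523), had 4, 35, 52, 43 and 64 reads, or 1.20, 8.23, 13.5, 15.3 and 24.2 CPM. The pure NCI-H1975 library was far below all others, and the ratio of the pure libraries was 20.2, resting on those 4 reads. The slope was 2.74 ± 0.49 (edgeR adjusted p = 0.000604), or 6.68-fold on the fitted line, and 1.94 without the 100:0 library. RNA mixed by mass follows a straight line in CPM and not in log2. A log2 slope can therefore fall short of a large ratio. WARS2, the tryptophanyl enzyme (chr1:119031216-119140654), had 22, 40, 53, 50 and 54 reads, or 6.58, 9.40, 13.8, 17.7 and 20.4 CPM, and a slope of 1.61 ± 0.31. It rose at each step. SARS2, the seryl enzyme (chr19:38915266-38930763), had 21, 72, 71, 62 and 73 reads, or 6.28, 16.9, 18.5, 22.0 and 27.5 CPM, with a slope of 1.58 ± 0.35. Its largest step was between the first 2 libraries, and its slope without the 100:0 library was 0.96, still called. VARS2, the valyl enzyme (chr6:30914205-30926459), had 8.97, 7.29, 12.8, 19.5 and 16.6 CPM and a slope of 1.30 ± 0.37. The 2 libraries rich in NCI-H1975 RNA were the lowest. YARS2, the tyrosyl enzyme (chr12:32727490-32755897), had 19.7, 24.9, 26.6, 36.9 and 36.6 and a slope of 0.93 ± 0.22. With library totals VARS2 and YARS2 kept positive slopes of 0.89 and 0.52 without a call.

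IARS2, the mitochondrial isoleucyl enzyme (ENSG00000067704.10, chr1:220094132-220148041), was the mitochondrial member that fell. It had 170, 149, 134, 124 and 93.2 CPM, lower at every step, with a slope of -0.78 ± 0.13 (edgeR adjusted p = 0.000385). The 10 mitochondrial members without a call, AARS2, CARS2, EARS2, FARS2, HARS2, LARS2, MARS2, NARS2, RARS2 and TARS2, had slopes of -0.58 to 0.69. TARS2, the threonyl enzyme, was nearest to the threshold, with 17.9, 23.7, 18.2, 24.8 and 32.1 CPM and an edgeR adjusted p of 0.0522. It passed without the 75:25 library (0.038 in that test) or the 50:50 library (0.0437). LARS2, the leucyl enzyme, had 14.7, 21.2, 11.98, 11.4 and 12.8 and a slope of -0.58 ± 0.37. Its level at 75:25 was above both pure libraries.

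Summed over a class, the cytosolic members took 3215, 3330, 3416, 3678 and 3702 TMM-scaled CPM along the series and the mitochondrial members 386, 407, 395, 431 and 413. The log2 ratios of the pure libraries were 0.20 and 0.10 on this scale and -0.21 and -0.32 with library totals, so the direction of the sums depended on the scaling and none is given.

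Levels of different genes were compared as TPM, which divides reads by transcript length and scales each library to 1000000, within a library only. In nanopore cDNA each read comes from a single molecule, so division by length can favour genes read as short transcripts, and CPM values are given beside it. GARS1 had the highest mean TPM of the cytosolic members, with 545, 390, 360, 290 and 233 by library, and TARS1 followed with 289, 252, 221, 177 and 146. The lowest were FARSB at 9.09, 9.24, 9.24, 10.1 and 8.99, all read as a single transcript of 6761 bases, and HARS1, the histidyl enzyme, at 30.5, 26.5, 23.3, 25.1 and 22.9. Mean CPM also put GARS1 first (393), but SARS1 second (301) before TARS1 (277), and HARS1 (46.9) below FARSB (61.0). In the 0:100 library GARS1 and SARS1 were close per length, at 233 and 228 TPM, while SARS1 led by reads.

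Among the mitochondrial members IARS2 stood apart with 66.5, 49.1, 40.6, 34.97 and 23.9 TPM. CARS2, the cysteinyl enzyme, came next with 29.2, 22.7, 18.1, 18.7 and 17.4, and both were also the highest by mean CPM (134 and 30.9). LARS2 was lowest in TPM, at 3.73, 4.35, 2.31, 1.85 and 2.00, beside MARS2, the methionyl enzyme, at 3.43, 3.13, 2.77, 2.65 and 2.63. The order of these 2 changed between libraries. By mean CPM MARS2 (8.40) was the lowest and LARS2 (14.4) was not.

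Cytosolic and mitochondrial enzymes for the same amino acid could be set side by side in 15 pairs, with FARS2 paired with each subunit of the cytosolic enzyme. The cytosolic transcript was the higher in CPM in every library in all 15 pairs, and in TPM in 13. The exceptions were FARSB against FARS2, with TPM ratios of 0.568 to 0.880, and IARS1 against IARS2, with 0.988 at 100:0 and 1.54 at 0:100. The median TPM ratio was 12.2 at 100:0 and 8.90 at 0:100. Of all pairs MARS1 over MARS2 had the highest TPM ratio in the 100:0 library (42.8), and its TPM ratios in the other libraries were 47.4, 54.9, 65.7 and 52.7. In CPM its ratio at 100:0 was 11.8, while WARS1 over WARS2 had the highest, 36.6. Of MARS1 reads 26.0% were on MARS1-230, a transcript of 734 bases, 13.4% on MARS1-209 (670 bases) and 8.01% on MARS1-215 (294 bases). The TPM ratio of WARS1 over WARS2 fell away from 40.7 through 26.8, 20.4 and 15.5 to 13.5, and its CPM ratio was 12.3 at 0:100. WARS2 was called and WARS1 was not. Both enzymes were called in 3 pairs, SARS, VARS and YARS, and both rose in each. In 7 pairs 1 enzyme was called and in 5 neither was. No pair had calls in opposite directions, which only the 3 pairs with both enzymes called could have shown. Of all genes tested 45.7% were called, and no share for other pairs of genes was computed. The difference between the slopes of a pair was not tested.

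**Figure D3:**
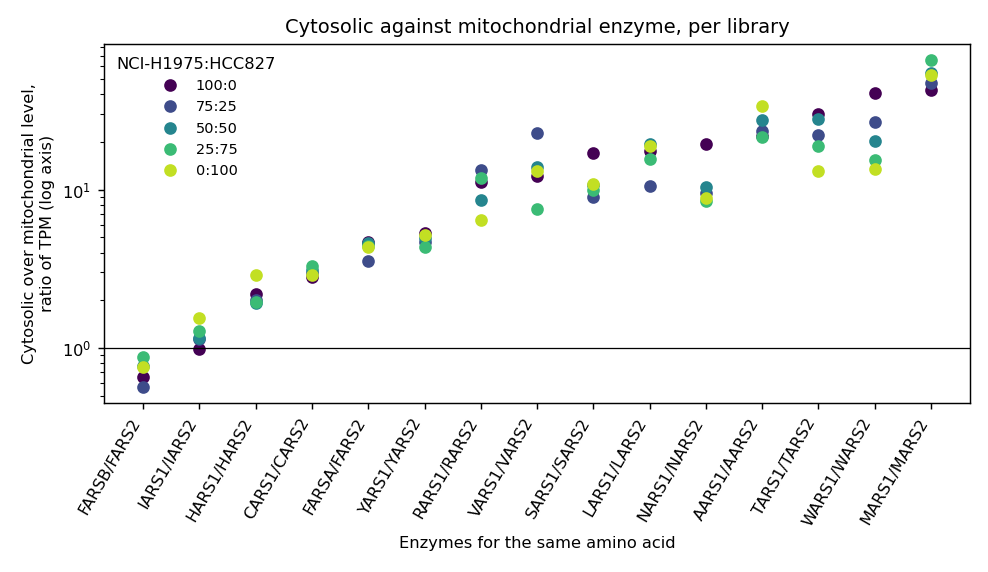
Ratio of the cytosolic to the mitochondrial enzyme for the same amino acid (TPM, log axis), with 1 point per library coloured by mixing ratio and the line at equal levels. FARSB/FARS2 lies under the line in all libraries, MARS1/MARS2 is near 50, and WARS1/WARS2 steps down from 40.7 to 13.5 as HCC827 RNA increases.

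Reads were next compared between transcripts of a gene, as typed by GENCODE v44. Cytosolic members had 72.0% of their reads on protein_coding transcripts (95% Wilson interval 71.6 to 72.4), 15.5% on retained_intron (15.2 to 15.8) and 9.15% on nonsense_mediated_decay transcripts (8.91 to 9.38). For mitochondrial members these shares were 84.7% (83.8 to 85.5), 8.34% (7.70 to 9.01) and 3.15% (2.76 to 3.59). Intervals cover counting error only, and how reads were divided between overlapping transcripts is not given in the sources used here. Retained-intron transcripts took 56.6% of YARS1 reads (55.0 to 58.2), 51.0% of GARS1 reads (49.8 to 52.2) and 62.8% of CARS2 reads (58.6 to 66.9). They also took 46.5% of SARS2 and 48.8% of VARS2 reads, and 28.2% of VARS2 reads were on protein_coding transcripts. Both SARS2 and VARS2 kept their calls with protein_coding transcripts alone. Nonsense-mediated decay transcripts took 48.2% of IARS1 reads (46.5 to 49.9) and 41.4% of QARS1 reads (39.1 to 43.7), while 99.4% of WARS1 reads (99.1 to 99.6) were on protein-coding transcripts. KARS1, which serves both compartments, had its reads split between KARS1-202 (49.1%, 47.4 to 50.9) and KARS1-201 (48.8%, 47.1 to 50.5).

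Isoform usage along the series was tested for the 26 members with at least 2 transcripts past the read filter. In the edgeR diffSpliceDGE test with Simes p-values 0 members were called, beside 0.402% of 7455 genes, and the gene-level F test also called 0. At an unadjusted p under 0.05 there were 3 members (11.5% of those tested, beside 3.86% of all genes), which did not pass: SARS1 (0.0225), LARS1 (0.0461) and VARS1 (0.0484). SARS1-205, a transcript with no defined coding sequence, took 6.38% (4.60 to 8.78), 7.88%, 5.10%, 3.58% and 4.58% (3.54 to 5.92) of SARS1 reads. LARS1-203, a retained-intron transcript, went from 5.36% (3.37 to 8.42) through 5.65%, 4.13% and 3.10% to 1.71% (0.734 to 3.95) on 5 reads. VARS1-222, also without a defined coding sequence, took 12.5% (9.08 to 17.1), 13.7%, 14.1%, 7.44% and 8.65% (6.39 to 11.6). In all 3 the intervals of the pure libraries overlapped.

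Several members overlap other genes, and the use of strand in counting is not given in the sources used here. MARS1 overlaps DDIT3 on the opposite strand, with 2222 and 1967 reads over all libraries, and DDIT3 had a slope of -0.29 without a call. HARS1 and HARS2 lie head to head on opposite strands and their ends overlap. HARS1 had 782 reads and HARS2 468. HARS1 also overlaps WDR55 on the opposite strand (608 reads), which rose, and DND1 on the same strand (71 reads), and HARS2 also overlaps ZMAT2 on the same strand (2138 reads). YARS2 overlaps DNM1L (450 reads against 475). EARS2 overlaps GGA2 on the same strand (636 reads against 217) and UBFD1 (698). VARS2 overlaps the noncoding gene ENSG00000288473 on the same strand (103 reads against 209). Levels of these members are uncertain to that extent. AARS1, KARS1, WARS1, WARS2 and CARS2 overlap genes on the opposite strand that held 17.9 to 41.1% as many reads. WARS1 also overlaps WDR25 on the opposite strand, at 7.32%. Of these overlapping genes DDX19B, at AARS1, rose with a slope of 0.88, and the others had no call. Annotated pseudogenes of members held 0 to 4 reads each.

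The position of the members was then set beside the genes around them, taking all other tested genes within 1 Mb and leaving out other members. Of 17 such neighbours of PARS2 15 rose and 0 fell, with a median slope of 1.46. Over all genes tested 23.5% rose and 22.3% fell, and the counts around each member stand beside those shares. Of 40 neighbours of SARS2 28 rose and 1 fell (median 1.19). Around VARS1 28 of 53 rose and 6 fell (median 0.76), and around VARS2, 851 kb away with a window that overlaps it, 28 of 59 rose and 5 fell (0.53). AARS1 lay among 27 neighbours of which 15 rose and 3 fell (0.72). FARSB had a slope of 0.68, and of its 4 neighbours 1 rose and 1 fell (median -0.86). EPRS1 and IARS2 lie 47.6 kb apart on chromosome 1, and both fell where the 7 neighbours had a median of 0.22, of which 2 rose and 2 fell. GARS1 fell among 10 neighbours with a median of -0.68. As a description across the 35 members, which share libraries and in places neighbours, Pearson's r between a member's slope and the median of its neighbours was 0.594 and Spearman's rho 0.417. Without PARS2 and SARS2, the members with the most extreme neighbours, r was 0.357 and rho 0.305 over 33.

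**Figure D4:**
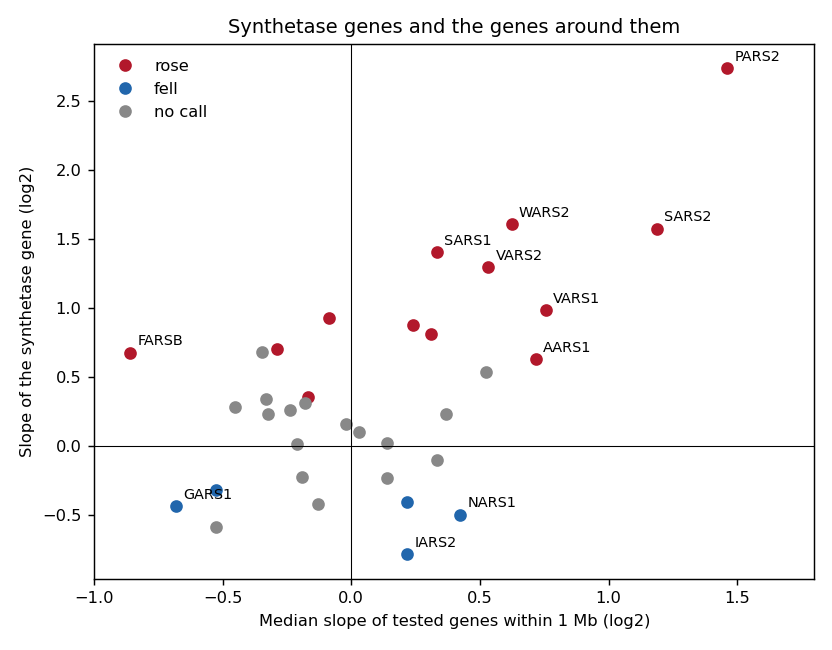
Slope of each synthetase gene (log2) against the median slope of the tested genes within 1 Mb of it, 1 point per member coloured by call. PARS2 and SARS2 stand at the upper right with neighbour medians of 1.46 and 1.19, and FARSB, at -0.86, rose among neighbours with a negative median.

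Genes that work with the synthetases were read from the same fit. In the cytosol 7 of the enzymes, EPRS1, IARS1, LARS1, QARS1, MARS1, KARS1 and RARS1, are held in the multi-synthetase complex, and of these 3 rose and 1 fell. The other 12 cytosolic members had 5 that rose and 3 that fell. Of the 3 scaffold genes of the complex 0 rose and 2 fell, with a median slope of -0.56. Calls were 57.1% of the complex members, 66.7% of the other cytosolic members and 66.7% of the scaffold genes, beside 45.7% of all genes tested. EEF1E1 had 28.7, 24.5, 19.3, 23.1 and 13.2 CPM, with a slope of -0.87 ± 0.28, and AIMP1 had 125, 111, 119, 100 and 79.6, with a slope of -0.56 ± 0.15. AIMP2, the third, was at 47.2 and 54.3 in the pure libraries without a call. Of the scaffold genes 1 was called without the 100:0 library and 0 without the 0:100 library, where 1 had an unadjusted p under 0.05 in the edgeR test.

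The 10 partner genes mostly edit mischarged tRNA, complete its 3′ end or make the mitochondrial glutaminyl and formylmethionyl tRNA. Of these 9 were tested, 2 rose and 1 fell (median slope 0.13), or 33.3% called beside 45.7% of all genes tested. With library totals 0 rose and 2 fell (median -0.28). AARSD1, an editing protein for mischarged alanyl-tRNA, had 23.0, 34.1, 31.5, 39.4 and 46.0 CPM (slope 0.85 ± 0.21). DTD1, which removes D-amino acids from tRNA, went from 52.3 to 72.1 (0.39 ± 0.15). TRNT1, the enzyme that adds CCA to tRNA ends, had 12.3, 11.8, 11.7, 8.16 and 4.91 (-1.09 ± 0.39). Only 1 of these was called without the 100:0, the 75:25 or the 25:75 library, and 0 without the 0:100 library, where 2 had an unadjusted p under 0.05 (edgeR). Of 18 tRNA maturation genes 4 rose and 5 fell (median slope -0.07), or 50% called beside 45.7% of all genes tested. With library totals 1 rose and 8 fell (median -0.48), on a scale where the median of all genes was also negative. ELAC1, a tRNA 3′ processing enzyme, fell from 8.37 through 6.82, 5.47 and 3.55 to 3.02 CPM (-1.52 ± 0.48). POP1, a subunit of ribonuclease P, fell from 31.7 to 13.6 (-1.34 ± 0.27), and TSEN54, of the tRNA splicing endonuclease, rose from 16.1 to 28.7 (1.25 ± 0.35).

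Of 10 mitochondrial translation factors 2 rose and 0 fell (median slope 0.20), or 20% called beside 45.7% of all genes tested. With library totals 0 rose and 4 fell (median -0.22), and those 4 shared 0 genes with the TMM calls. The median of all genes was also negative on that scale. TUFM, the mitochondrial elongation factor Tu, had 193, 206, 206, 229 and 284 CPM (0.51 ± 0.13), and MRRF, the ribosome recycling factor, went from 16.7 to 26.8 (0.63 ± 0.24). Leaving out the 100:0, 75:25, 50:50 or 25:75 library left 1 call, and leaving out the 0:100 library left 0, with 1 at an unadjusted p under 0.05 (edgeR).

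Of 28 ATF4 response genes, amino acid and stress genes known as targets or regulators of ATF4, 12 rose and 5 fell (median slope 0.49), and with library totals 7 rose and 9 fell (median 0.08). On the TMM scale this was 60.7% called, beside the 45.7% of all genes tested. ATF4 itself, named here for the list and outside the rule for named genes, had 251, 296, 334, 409 and 439 CPM, a rise at each step (0.83 ± 0.12). DDIT4, an inhibitor of mTORC1 signalling, rose from 158 through 226, 298 and 369 to 464 (1.52 ± 0.12), and SLC7A1, a cationic amino acid transporter, from 26.0 to 81.9 (1.45 ± 0.23). ALDH1L2, a mitochondrial folate enzyme, fell from 15.6 through 13.6, 7.55 and 5.32 to 1.13 CPM, the last from 3 reads (-2.77 ± 0.49). SLC7A11, SLC38A2, ATF5 and EIF2AK4 also fell, so the list did not move as 1 group. WARS1 is known to be induced by interferon gamma, and its own level was 241, 241, 248, 265 and 251 CPM, without a call. Of 16 interferon-gamma response genes 12 were tested, 3 rose and 1 fell (B2M), with a median slope of 0.10. That was 33.3% called beside 45.7% of all genes tested. With library totals 3 rose and 5 fell (median -0.31). PSMB10, an immunoproteasome subunit, rose from 11.7 through 28.0, 37.8 and 55.3 to 62.6 (2.11 ± 0.27), while IFI30 rose from 24.8 to 56.2 and PSMB8 from 64.9 to 139.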

How the data were processed

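For each library the authors deposited estimated counts by transcript, unscaled, beside identifiers and lengths in bases, per the file headers and values. minimap2 2.24, Salmon 1.9.0 and GRCh38 are named, with no role, per the submitters' processing notes. All but 2 values were whole, and those were rounded. Repeated identifiers (161) were summed. Through GENCODE v44 224076 of 227751 human transcripts matched a gene, holding 98.6% of human reads. The other 3675 and 160 sequins were left out of gene sums. Coordinates are 1-based GENCODE v44 (GRCh38), and promoters are RefSeq's (GRCh38.p14).

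Slopes on the HCC827 mass fraction came from edgeR 4.0.16 (R 4.3.3), TMM, genes with at least 10 reads in at least 2 libraries, adjusted p under 0.05. Alternatives used DESeq2 1.42.0 and limma 3.58.1. PCR copies count as reads. The test was also run on simulated data of 13161 genes. It recovered 4 of 48 genes changed 1.5-fold, 20 of 50 at 2-fold and 42 of 50 at 4-fold, and 5 of 120 calls were false. Far fewer genes were changed there than the 45.7% called here, with directions drawn at random. Those rates therefore need not hold for these data, where small changes can still be missed. Members and lists were chosen with earlier results of these data known. Named in every library are, per class, the 4 largest slopes each way past the threshold and the 2 highest and 2 lowest levels per length, the 3 smallest isoform p-values and up to 3 called genes of each other list. Other genes are named outside this rule. Of the marker lists 1 gene is not reported here.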

Additional observations from a re-analysis of the deposited data

How the results depend on the processing

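Of 13 alternatives per member, 454 slopes were obtained: 384 kept direction and side of the threshold, 38 lost a call and 7 gained 1 in the same direction. The other 25 changed sign, and of these CARS1 and WARS1 gained a call with library totals. MARS1, SARS1 and WARS2 kept their calls in all 13. PARS2 had no value with 10 reads required in every library. Members called numbered 16 with DESeq2, without a filter, with 10 reads in every library and with protein_coding transcripts, 17 with the length trend removed, 18 with limma-voom and with library totals, and 15 to 17 with a library left out. No paired analysis was possible because each ratio had 1 library.

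In the comparison of 2 libraries against 2, calls were 5 members, 3 cytosolic and 2 mitochondrial, all of them upward, 5 tRNA maturation, 11 ATF4, 2 interferon-gamma, 0 scaffold (0 at an unadjusted p under 0.05), 0 partner (2) and 0 mitochondrial factor genes (0), in the edgeR test. This contrast uses 4 libraries in 2 groups, and the share of all genes it called is not given beside these counts. DESeq2 called 1 scaffold, 1 partner and 1 mitochondrial factor gene, protein_coding transcripts 1 partner gene, and no filter or 10 reads in every library 1 mitochondrial factor. Library totals called 4 mitochondrial factors, which all fell, and 8 interferon-gamma genes. With a library left out scaffold and partner genes gave 0 to 2 calls and mitochondrial factors 0 to 1. The causes were not tested.

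The summed log2 ratio was -0.215 (cytosolic) and -0.322 (mitochondrial) with library totals and 0.25 (cytosolic) with protein_coding transcripts. Slopes that changed sign with library totals were CARS1 -0.39, FARSA -0.13, HARS1 -0.10, LARS1 -0.25, QARS1 -0.0542, WARS1 -0.31, AARS2 -0.18, FARS2 -0.15, HARS2 -0.39, MARS2 -0.17 and RARS2 -0.0693, of which QARS1 had a call on the TMM scale and CARS1 and WARS1 fell past the threshold with library totals. CARS1 was -0.0060 without a filter, -0.0334 with 10 reads in every library and -0.0086 with protein_coding transcripts, and HARS2 -0.0074, -0.0334 and -0.0217, and -0.0267 with the length trend removed. CARS2 was 0.44 with protein_coding transcripts. With a library left out slopes ran from -0.0530 to 0.10 for CARS1, -0.21 to 0.42 for LARS1, -0.0671 to 0.66 for AARS2, -0.42 to 0.25 for CARS2 and -0.16 to 0.45 for HARS2, none of which had a call. Low read counts limit the mitochondrial members most.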
